A study of Homo sapiens with 8 samples.

Results

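The genes described here are those of the human mitochondrial genome, chosen by symbol: every gene of the deposited count tables whose symbol starts with MT and a hyphen. There are 37 of them among 63677 genes, namely 13 that code for proteins, 2 for ribosomal RNA (rRNA) and 22 for transfer RNA (tRNA). No count entered that rule, but the group was proposed with results for JJN3 known, so its values in JJN3 are given as a description. JJN3 and H929 are cell lines from multiple myeloma (MM), a cancer of plasma cells. Each was treated for 24 h with 50 nM THZ1, a covalent inhibitor of the kinase CDK7, or with the vehicle DMSO, and RNA was sequenced from 2 libraries per line and treatment, 8 in all. Nothing in the labels says that the 2 libraries of a group came from separate cultures, so p-values measure the spread between these libraries, which may be technical.

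The mitochondrial genome is a small circle that is transcribed inside the organelle by its own RNA polymerase, POLRMT, and not by the nuclear RNA polymerase II that CDK7 serves. Both DNA strands are transcribed as long RNAs that are cut into separate transcripts, in large part at the tRNAs that lie between the other genes. The rRNA genes, most tRNA genes and all coding genes but MT-ND6 are read in one direction and are called heavy-strand genes here. MT-ND6 and the remaining 8 tRNA genes are read in the other direction and are called light-strand genes. The encoded proteins are subunits of the respiratory chain and of ATP synthase, the rRNAs form the core of the mitochondrial ribosome, and the tRNAs serve its protein synthesis.

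The total count on genes was 17476443 to 19194371 per library, and CPM (counts scaled to a common library total) of 0.156 to 0.172 correspond to 3 counts. That is an approximate upper bound, from counting error alone, on the expected count of a gene listed at 0. Of 8 plasma cell markers the summed level was 1387 to 7160 CPM, with XBP1 at 320.1 CPM or more and IRF4 at 586 CPM or more in every library. The summed levels of 4 B cell markers (0.166 to 4.04 CPM), 4 monocyte markers (0.052 to 1.07 CPM) and 4 erythroid markers (0.053 to 1.52 CPM) were far lower, with CD22, FCN1 and HBA2 at 0 in all 8 libraries. The sum of 4 T cell markers was 1.78 to 4.41 CPM in 6 libraries and 35.1 and 35.9 CPM in those labelled H929 THZ1, nearly all of it CD3E. Plasma cell markers also split by the H929 labels. SLAMF7 was at 0.107 and 9.65 CPM with DMSO and 485 and 502 with THZ1, and TNFRSF17 at 45.5 and 55.7 against 642 and 640. CD38 (96.5 and 91.7 against 65.9 and 64.0) and MZB1 (350 and 382 against 186 and 176) were lower with THZ1, and the others higher. Among light chain V genes, the lambda share was 99.99% and 98.0% in the H929 DMSO libraries, with kappa counts of 3 and 597. It was at most 0.212% in both H929 THZ1 libraries and 0.257% to 0.391% in JJN3. For H929 the treatment label and the source of the cells therefore cannot be told apart, and values are given for the libraries as labelled. In bulk RNA, fewer cells of a type and less RNA per cell cannot be told apart.

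The tRNA genes were the least measured members, and their sequences bear on what could be counted. The libraries held single-end reads of 50 bases, and the authors kept reads that align to a single place in the genome. A stretch of mitochondrial DNA that also lies, base for base, in a nuclear chromosome could therefore give no count. On the GRCh37 sequence, 3944 of the 16520 windows of 50 bases on the mitochondrial chromosome (23.9%) had an exact copy elsewhere in the assembly, most of them on chromosome 1. The mitochondrial sequence in the authors' hg19 index is not given in the sources used here.

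A group of 7 tRNA genes was at 0 in all 8 libraries: MT-TQ, MT-TW, MT-TA, MT-TN, MT-TS1, MT-TK and MT-TE. These were exactly the 7 of 22 tRNA genes in which every window of 50 bases inside the gene had a nuclear copy. In each of the other 15 tRNA genes at most 78.9% of the windows had a copy, in 8 of them none did, and the counts summed over the 8 libraries were 24 to 6682. A read that lies inside one of those 7 genes could therefore give no count. The sequences of 3 genes at 0 and of the 3 measured light-strand tRNA genes are shown for that contrast, on the strand of the gene, with capitals for bases that lie in at least 1 window with an exact nuclear copy.
MT-TQ (glutamine, chrM:4329-4400, minus strand): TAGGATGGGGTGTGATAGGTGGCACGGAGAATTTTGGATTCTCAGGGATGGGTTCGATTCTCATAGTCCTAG
MT-TK (lysine, chrM:8295-8364, plus strand): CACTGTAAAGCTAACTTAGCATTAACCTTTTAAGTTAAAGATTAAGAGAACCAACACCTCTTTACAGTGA
MT-TE (glutamate, chrM:14674-14742, minus strand): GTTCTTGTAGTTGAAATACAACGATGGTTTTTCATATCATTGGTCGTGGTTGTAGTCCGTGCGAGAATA
MT-TC (cysteine, chrM:5761-5826, minus strand): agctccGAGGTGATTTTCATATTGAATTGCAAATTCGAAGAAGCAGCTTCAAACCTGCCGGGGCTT
MT-TY (tyrosine, chrM:5826-5891, minus strand): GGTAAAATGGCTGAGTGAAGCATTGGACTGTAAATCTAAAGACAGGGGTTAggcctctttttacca
MT-TP (proline, chrM:15956-16023, minus strand): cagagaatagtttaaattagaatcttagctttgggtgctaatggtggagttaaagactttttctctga

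MT-TP, with no capitals, was the tRNA gene with the highest count, and MT-TC, of which little is free of capitals, had at most 115 counts in any library. Inside MT-TC 64.7% of the windows had a nuclear copy, inside MT-TY 11.8% and inside MT-TP 0%. The room for a read also differed: without regard to strand, 70 start positions give a unique read that touches no gene but MT-TP, against 14 for MT-TY and 5 for MT-TC. Of the 7 genes at 0, MT-TW had 7 such positions, all of them for reads that cross an edge of the gene, MT-TE had 2, MT-TA 1 and the other 4 had 0. With such counting a 0 in those 4 gives no level of the RNA, whereas MT-TW had more such positions than MT-TC, which was counted. Counting by strand would leave 0 positions for MT-TN and MT-TK alone. It would give 39 for MT-TQ, 43 for MT-TS1, 43 for MT-TA, 47 for MT-TE and 49 for MT-TW, all for reads that cross an edge. Levels of different tRNA genes are therefore not compared. The genes are 59 to 75 bases long, so a read of 50 bases that lies inside a tRNA gene can start at only 10 to 26 positions, and a read that starts before the gene may come from an uncut precursor. Whether counting used the strand of the read is not given in the sources used here, so a light-strand gene and antisense RNA from the heavy-strand transcript cannot be told apart.

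**Figure D1:**
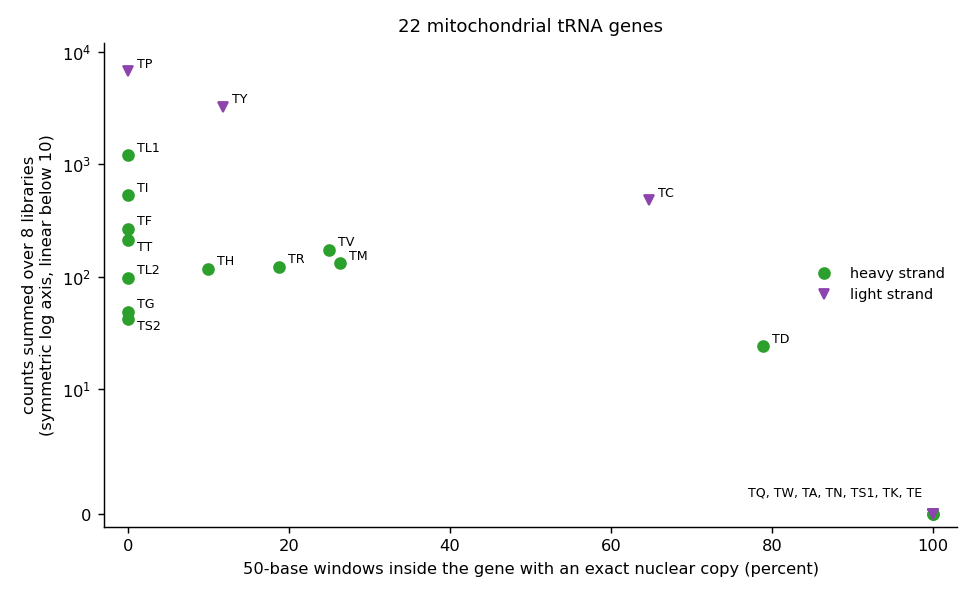
Each point is 1 of the 22 tRNA genes, with the percent of its inside 50-base windows that have an exact nuclear copy on the x axis and its counts summed over 8 libraries on the y axis, a symmetric log scale; circles are heavy-strand and triangles light-strand genes. The 7 genes at 100% lie at 0 counts, and the other 15 lie between 24 and 6682 counts.

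THZ1-treated JJN3 libraries held a larger share of mitochondrial counts than their DMSO controls. The 37 genes took 3.36% and 1.65% of all gene counts with DMSO and 5.34% and 6.63% with THZ1, a ratio of the means of 2.39. The 2 treated libraries lay above both controls, and the controls differed from each other by a factor of 2.03 in CPM. For the libraries labelled H929 the share was 2.80% and 2.63% with DMSO and 2.94% and 4.02% with THZ1, a ratio of 1.28, with THZ1 replicate 1 close to the controls. With 2 libraries against 2 an exact two-sided permutation test cannot give a p below 0.333, so these shares carry no test. Shares and normalized levels are relative to the other genes of the same library, and RNA per cell was not measured. Words such as higher, lower, rose and fell are relative in that sense throughout.

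By class, the rRNA genes had the highest ratio of shares. In JJN3 they held 0.392% and 0.246% of all counts with DMSO and 1.35% and 1.53% with THZ1, a ratio of 4.51. The coding genes held 2.96% and 1.40% with DMSO and 3.97% and 5.08% with THZ1, a ratio of 2.08. Every class was higher in both treated JJN3 libraries than in both controls, with ratios of 2.73 for the heavy-strand and 1.60 for the light-strand tRNA genes. Among coding genes the ratio was 2.27 for the 7 subunits of complex I, 2.14 for the complex III subunit cytochrome b, 1.93 for the 3 subunits of complex IV and 1.62 for the 2 subunits of ATP synthase. In the libraries labelled H929 the rRNA genes again had the highest ratio, 1.88, with 0.162% and 0.163% in DMSO and 0.266% and 0.344% in THZ1, against 1.24 for the coding genes.

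**Figure D2:**
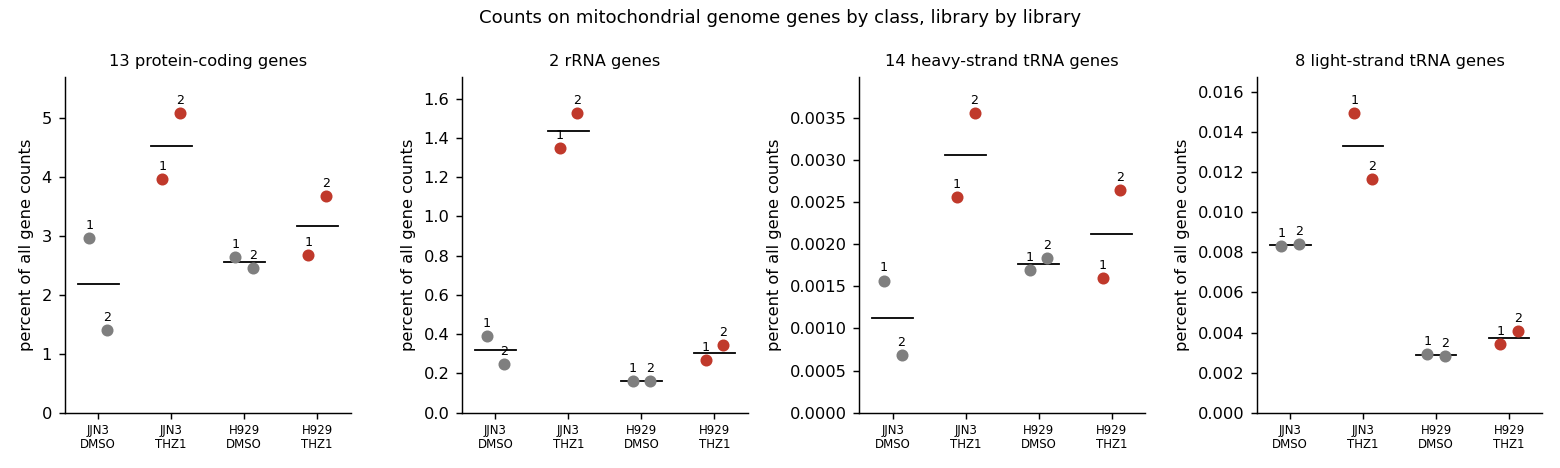
Percent of all gene counts on the coding, rRNA, heavy-strand tRNA and light-strand tRNA genes, with 1 point per library marked by its replicate number, a line at the mean of the group, and grey for DMSO and red for THZ1. The JJN3 rRNA share rises from 0.392% and 0.246% to 1.35% and 1.53%, and the pair of grey JJN3 points lies far apart for coding genes (2.96% and 1.40%) but close together for light-strand tRNA genes (0.0083% and 0.00841%).

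The 2 JJN3 DMSO libraries stood apart from each other in these genes more than in others. Of 4545 tested genes with a mean above 50 normalized CPM in these controls, 15 differed by more than 2-fold between them on the scale of log2(normalized CPM + 1), and 11 of those 15 were mitochondrial genome genes. Between the replicates of the other 3 groups 0 genes at such levels differed by more than 2-fold. Over all tested genes, at any level, 17 differed so between the JJN3 DMSO libraries, 12 of them mitochondrial genome genes. The number was 29 for JJN3 THZ1, 87 for H929 DMSO and 0 for H929 THZ1. In JJN3 DMSO, replicate 1 was above replicate 2 in CPM by a factor of 1.43 (MT-ND3) to 2.40 (MT-CYB) among the 13 coding genes, with a median of 2.08. Of the rRNA genes, MT-RNR1 differed less than any coding gene, by a factor of 1.33, and MT-RNR2, at 1.62, lay inside the coding range. The light-strand tRNA genes did not follow: MT-TY had 366 and 323 counts, MT-TP 1205 and 1247, and MT-TC 22 and 34. Nor did MT-TH, a heavy-strand tRNA gene with few counts (14 and 18). MT-ND6, the light-strand coding gene, went with the heavy-strand coding genes at a factor of 2.02. What set these libraries apart was not tested, and each JJN3 result below is given without either control where that matters.

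**Figure D3:**
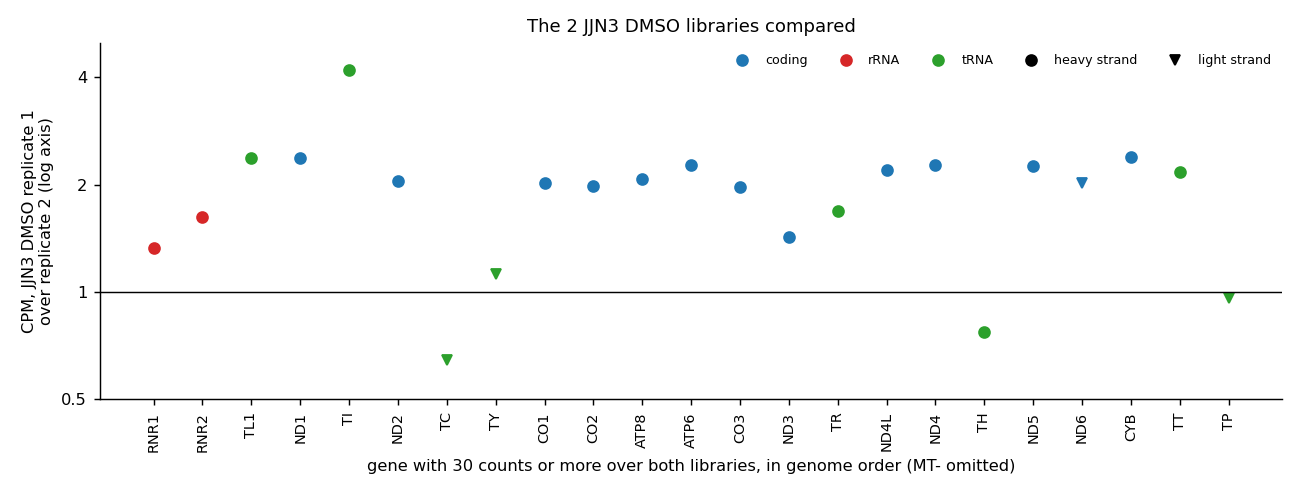
Ratio of CPM in JJN3 DMSO replicate 1 over replicate 2 on a log axis, for each gene with 30 counts or more over both libraries, in genome order; circles are heavy-strand and triangles light-strand genes. Coding genes lie between 1.43 and 2.40, the rRNA genes at 1.33 and 1.62, and the light-strand tRNA genes MT-TC, MT-TY and MT-TP at 0.643, 1.13 and 0.961.

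In JJN3, 27 of the 37 genes passed edgeR's filter on low counts, and all 27 were higher with THZ1, past an adjusted p of 0.05 and a log2 fold change of 0.5 (edgeR's quasi-likelihood test, Benjamini-Hochberg adjustment over all genes). Over all 13984 genes tested the same rule called 20.6% higher and 21.3% lower. The 27 were the 13 coding genes, both rRNA genes and 12 tRNA genes, and the normalized levels did not overlap between treatments for any of them, which held for 39.4% of all genes tested in that direction and 40.5% in the other. The median log2 fold change was 1.19 over the coding genes, 2.01 over the rRNA genes and 1.37 over the tested tRNA genes, against 0 over all genes tested. Since the group was proposed with this contrast known, these counts describe it and support nothing further. Without DMSO replicate 2, the control with the low mitochondrial share, 16 of the 27 were called, and MT-ND2, MT-ATP8, MT-ATP6, MT-CO3 and 7 tRNA genes were lost. The coding genes' log2 fold changes were then 0.29 to 1.10 (median 0.68), and without replicate 1 instead they were 1.20 to 2.30 (median 1.80), with 24 genes called. With DESeq2, 13 of the 27 were called, among them 5 coding genes and both rRNA genes.

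Both rRNA genes were higher with THZ1 in JJN3. MT-RNR2 (chrM:1671-3229), the large rRNA, was at 3522 and 2146 normalized CPM with DMSO and at 13382 and 14807 with THZ1, a log2 fold change of 2.31 ± 0.21 (SE). MT-RNR1 (chrM:648-1601), the small rRNA, was at 287 and 213 with DMSO and at 872 and 760.3 with THZ1, a log2 fold change of 1.71 ± 0.14. In both genes the treated libraries lay far above both controls. The count of MT-RNR2 over that of MT-RNR1 was 12.3 and 10.1 with DMSO and 15.3 and 19.5 with THZ1. Leaving out either control kept both called, at log2 fold changes from 1.49 to 2.70. Whether rRNA was depleted or RNA was selected is not given in the sources used here, and its part in the level of the rRNA genes was not tested.

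Among the 7 subunits of complex I, the NADH dehydrogenase that starts the respiratory chain, log2 fold changes in JJN3 ran from 0.79 to 1.60. MT-ND5 was at 2396 and 1050 normalized CPM with DMSO and at 4808 and 5608 with THZ1 (log2 fold change 1.60 ± 0.29). MT-ND1 went from 892 and 372 to 1482 and 2094 (1.50 ± 0.31). MT-ND6, the subunit on the light strand, went from 475 and 232 to 916 and 1078 (1.50 ± 0.25). In these 3 genes both treated libraries were well above the higher control. MT-ND4 was at 6674 and 2914 with DMSO and 10128 and 12565 with THZ1 (1.24 ± 0.30). MT-ND4L, which overlaps MT-ND4 by 7 bases, was at 912 and 410 with DMSO and 1309 and 1770 with THZ1 (1.22 ± 0.28). Their counts kept a ratio of 7.10 to 7.74 in all 4 libraries, although a read in the overlap cannot be given to either gene. MT-ND3 was at 532 and 369 with DMSO and 842 and 864 with THZ1 (0.92 ± 0.15). MT-ND2 had 1537 and 744 with DMSO and 1780 and 2167 with THZ1 (0.79 ± 0.25), so that its treated libraries lay little above the higher control.

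Cytochrome b, the mitochondrial subunit of complex III, and the 3 core subunits of complex IV, the cytochrome c oxidase, lay in the same range. MT-CYB went from 1694 and 699.6 normalized CPM to 2194 and 3281 (log2 fold change 1.19 ± 0.32). MT-CO1 was at 3520 and 1717 with DMSO and 5432 and 6665 with THZ1 (1.21 ± 0.26). MT-CO2 was at 5409 and 2702 with DMSO and 7601 and 8982 with THZ1 (1.03 ± 0.25). MT-CO3, the third of them, went from 2566 and 1287 to 3121 and 3794 (0.84 ± 0.25). The 2 subunits of ATP synthase, whose genes overlap by 46 bases, had the lowest values of the coding genes beside MT-ND2 and MT-CO3. MT-ATP6 was at 1818 and 795 with DMSO and 1984 and 2509 with THZ1 (0.78 ± 0.28). MT-ATP8 was at 313 and 149 with DMSO and 377 and 446 with THZ1 (0.83 ± 0.25). For both, DMSO replicate 1 came close to THZ1 replicate 1, and the call was lost without DMSO replicate 2.

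Of the 22 tRNA genes, 12 were tested in JJN3, at log2 fold changes from 0.50 to 2.02, and most had few counts. The largest value was that of MT-TL1, a leucine tRNA, which went from 93 and 39 counts to 168 and 306 (2.02 ± 0.33). MT-TL2, the other leucine tRNA, was counted 5 and 3 times with DMSO against 12 and 16 with THZ1 (1.96 ± 0.52). MT-TF, the phenylalanine tRNA ahead of MT-RNR1, was counted 13 and 7 times with DMSO against 32 and 35 with THZ1 (1.92 ± 0.39). Without DMSO replicate 2 the log2 fold changes of MT-TL1 and MT-TF were 1.51 and 1.53, and without replicate 1 they were 2.77 and 2.42, with both genes called. The call of MT-TL2 was lost without DMSO replicate 2 and with DESeq2. At the low end, MT-TR was counted 22 and 13 times with DMSO against 28 and 30 with THZ1 (0.92 ± 0.36). MT-TH was counted 14 and 18 times with DMSO against 29 and 24 with THZ1 (0.92 ± 0.36). Counts this low leave wide errors, and neither gene was called under DESeq2 or without either control. Of the other 10 tRNA genes, 7 were at 0 throughout, and MT-TD, MT-TG and MT-TS2 had 9 counts or fewer in each JJN3 library.

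Of the light-strand tRNA genes, MT-TY and MT-TP had controls more even than those of any coding gene, and MT-TC did not. Counts of MT-TY were 366 and 323 with DMSO against 886 and 745 with THZ1, a log2 fold change of 1.44 ± 0.13. Those of MT-TC were 22 and 34 with DMSO against 63 and 61 with THZ1 (1.34 ± 0.29). Those of MT-TP were 1205 and 1247 with DMSO against 1666 and 1351 with THZ1, the smallest value of the 27 tested (0.501 ± 0.12), at the limit of 0.5. That call was lost without DMSO replicate 1 (0.47) or THZ1 replicate 1 (0.27) and with total counts (0.39). As a percent of the counts on the 37 genes, MT-TP stood at 0.187 and 0.395 with DMSO and at 0.179 and 0.110 with THZ1, so that its share was lower in both treated libraries. MT-ND6 against MT-ND5, neighbours on opposite strands, kept a ratio of counts between 0.191 and 0.225 in all 8 libraries.

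**Figure D4:**
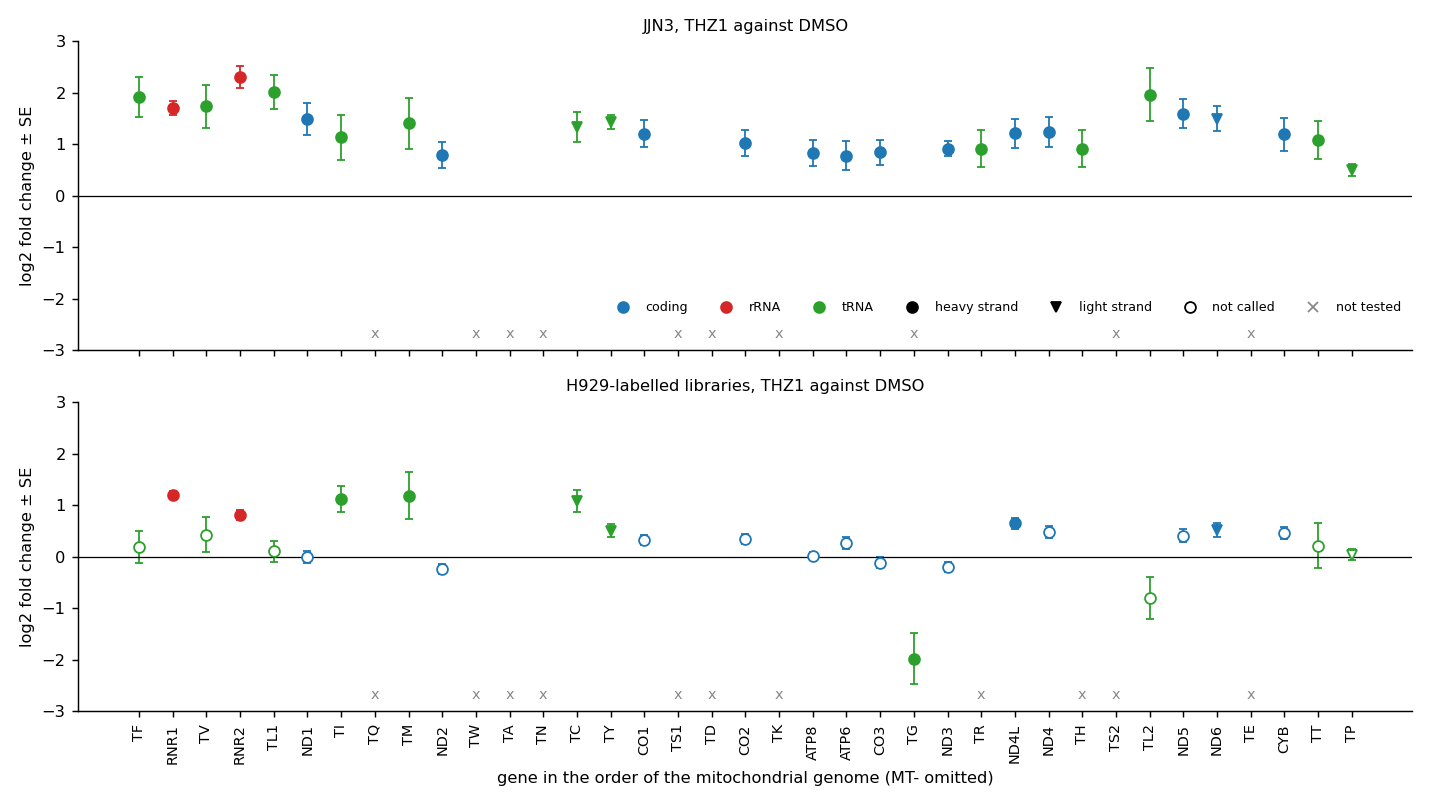
Log2 fold change of THZ1 against DMSO with its SE for each tested gene, in the order of the mitochondrial genome, for JJN3 above and the libraries labelled H929 below; colours give the class, triangles the light strand, open symbols genes not called and crosses genes not tested. In JJN3 all 27 points lie between 0.50 and 2.31, and under the H929 labels 26 points lie between -1.98 and 1.20.

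The share of each gene within the mitochondrial counts was compared as well, a measure that does not depend on their total. MT-RNR2 held 10.8% and 13.5% of the counts on the 37 genes with DMSO in JJN3 and 23.7% and 21.9% with THZ1. For H929 it held 5.22% and 5.53% with DMSO and 7.82% and 7.49% with THZ1. Since such shares sum to 100%, a rise of MT-RNR2 lowers the others, so the coding genes were also set against their own sum.

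As a share of the counts on the 13 coding genes, 5 genes were higher and 5 lower in both treated JJN3 libraries than in both controls, and 3 overlapped. Those 5 of 13 in each direction are near the 39.4% and 40.5% of all genes whose normalized levels did not overlap. MT-ND5 held 8.34% and 7.81% with DMSO and 11.5% and 10.8% with THZ1. MT-ND2 held 5.35% and 5.54% with DMSO and 4.24% and 4.18% with THZ1, and MT-CO3 8.93% and 9.58% with DMSO and 7.44% and 7.32% with THZ1. The 2 controls, which differed 2.03-fold in total mitochondrial CPM, were close to each other in these 3 shares. For H929, MT-ND2 held 7.70% and 7.54% with DMSO and 5.58% and 5.23% with THZ1, and MT-CO3 12.4% and 12.6% with DMSO and 9.52% and 9.65% with THZ1. Under the H929 labels 7 of the 13 were higher, 4 lower and 2 overlapped, beside 45.6% and 45.4% of all genes not overlapping in normalized level. Of the 13 genes, MT-ND2 and MT-CO3 were lower and MT-CO1, MT-ND4, MT-ND5 and MT-ND6 higher with THZ1 under both labels. The share of all genes on the same side under both labels was not computed. MT-CO1 differed little, from 12.2% and 12.78% to 12.94% and 12.86% in JJN3 and from 13.8% and 14.32% to 14.9% and 14.34% under the H929 labels. MT-CO2 went opposite ways, from 18.8% and 20.1% to 18.1% and 17.3% in JJN3 and from 9.99% and 10.4% to 11.1% and 10.6% under the H929 labels. MT-ND1 did too, from 3.10% and 2.77% to 3.53% and 4.04% in JJN3 and from 6.24% and 6.31% to 5.13% and 5.26% under the H929 labels.

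**Figure D5:**
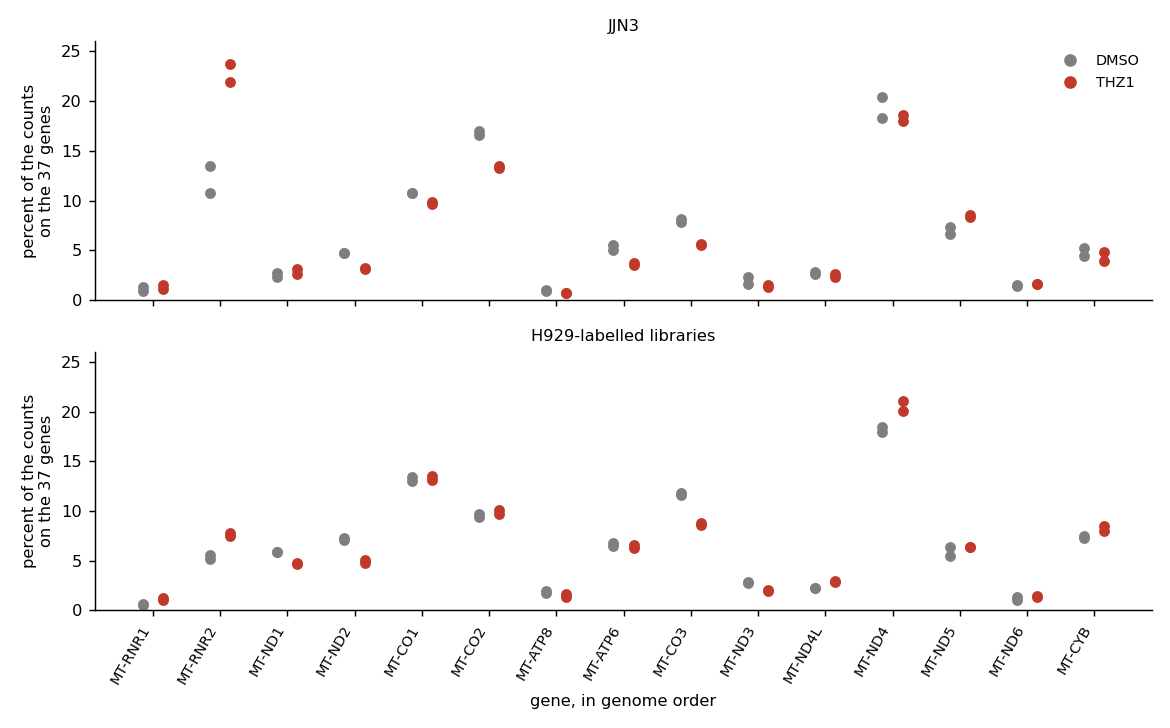
Percent of the counts on the 37 genes held by each coding and rRNA gene, with 1 point per library, grey for DMSO and red for THZ1, for JJN3 above and the libraries labelled H929 below. MT-RNR2 moves from 10.8% and 13.5% to 23.7% and 21.9% in JJN3, and MT-CO3 is lower in the treated libraries under both labels.

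Per kilobase of gene, MT-CO2 and MT-ND4 had mean levels of 6128 and 3594 CPM with DMSO in JJN3, MT-CO3 2540, MT-ND4L 2300, MT-ATP6 1982 and MT-RNR2 1880. With THZ1 the means were 11698 for MT-CO2, 8719 for MT-RNR2 and 7949 for MT-ND4, and these 3 levels kept that order in both treated libraries. Levels per kilobase take no account of the windows with nuclear copies. Counts per start position that gives a unique read put MT-CO2, MT-RNR2 and MT-ND4 in the same order in both treated libraries, but with DMSO they put MT-ATP6 (117 and 51.4) above MT-ND4 (103.5 and 45.4). In the libraries labelled H929 with DMSO, MT-CO3 was at 4058 and MT-CO2 at 3790 CPM per kilobase. Per unique start position MT-CO3 was also the highest member in both libraries (120.6 and 110.4). Next to it, MT-ATP6 lay above MT-CO2 in replicate 1 (116 and 110) and below MT-CO2 in replicate 2 (100.3 and 102). The count of MT-CO2 over MT-CO1 was 1.35 to 1.57 in the 4 JJN3 libraries and 0.724 to 0.744 in the 4 labelled H929.

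For H929, 26 members were tested, of which 8 were higher and 1 lower with THZ1, against 33.1% and 32.6% of all 14863 genes tested. Normalized levels did not overlap for 14 members that were higher and 2 that were lower with THZ1, against 45.6% and 45.4% of all genes. The share of members called higher was thus no larger than that of genes in general. Both rRNA genes rose: MT-RNR1 from 161 and 179.7 normalized CPM to 357 and 423 (log2 fold change 1.20 ± 0.07, edgeR adjusted p = 3.68e-10), and MT-RNR2 from 1498 and 1474 to 2262 and 2969 (0.82 ± 0.09, edgeR adjusted p = 7.78e-07). Of 13 coding genes, 2 rose. MT-ND4L went from 658 and 607 to 835 and 1155 (0.65 ± 0.10, edgeR adjusted p = 2.7e-05), and MT-ND6 from 389 and 288 to 394 and 572 (0.51 ± 0.14, edgeR adjusted p = 0.00264). THZ1 replicate 1 was barely above DMSO replicate 1 in MT-ND6, and without THZ1 replicate 2 neither coding gene was called. MT-ND6 was not called with DESeq2 either.

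The other 11 coding genes did not pass both limits, at log2 fold changes from -0.24 to 0.49. In the complex I genes, MT-ND4 was at 5157 and 4906 normalized CPM with DMSO and 5811 and 8326 with THZ1, MT-ND5 at 1839 and 1462 against 1854 and 2545, and MT-ND1 at 1683 and 1573 against 1348 and 1904. MT-ND2 was at 2077 and 1881 with DMSO and 1465 and 1891 with THZ1, and MT-ND3 at 834 and 736 against 598 and 777. In all 5 genes THZ1 replicate 2 was well above replicate 1. The same held for the remaining ones: MT-CYB was at 2088 and 1991 against 2299 and 3352, MT-CO1 at 3719 and 3570.0 against 3922 and 5188, and MT-CO2 at 2696 and 2584 against 2916 and 3827. MT-CO3 was at 3335 and 3145 against 2498 and 3490.2, MT-ATP6 at 1942 and 1731 against 1821 and 2603, and MT-ATP8 at 557 and 458 against 483 and 544. The MT-ATP8 values have a limit, since counts on its nuclear copy MTATP8P2, given below, differed between these groups. Without THZ1 replicate 1, 8 coding genes were called higher, and without THZ1 replicate 2 none was, so the count of members called higher (8) became 14 or 4. Without DMSO replicate 2 it was 5.

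Among the tRNA genes of the libraries labelled H929, 4 rose and 1 fell of 11 tested. MT-TC went from 47 and 46 counts to 88 and 115 (1.08 ± 0.21, edgeR adjusted p = 0.000221) and MT-TY from 194 and 179 to 252 and 296 (0.51 ± 0.13, edgeR adjusted p = 0.00157). MT-TY lay at the limit of 0.5, with 0.49 without DMSO replicate 2 and 0.39 without THZ1 replicate 2. MT-TI, the isoleucine tRNA, and MT-TM, the methionine tRNA, rose from at most 40 and 10 counts to at most 108 and 24 (log2 fold changes of 1.118 and 1.190). The call of MT-TM was lost with DESeq2 (adjusted p = 0.13) and without either DMSO library or THZ1 replicate 2, and that of MT-TI without a filter. MT-TG, the glycine tRNA, fell, with 14 and 21 counts against 5 and 4 (-1.98 ± 0.49 on the log2 scale, edgeR adjusted p = 0.00161). It was the lone member called lower in either line, and its highest count in any JJN3 library was 3. MT-TP, with 307 and 281 counts against 290 and 335, and MT-TL1, with 145 and 137 against 114 and 199, overlapped between the groups. MT-TF, with 30 and 53 counts against 36 and 62, and MT-TL2, with 18 and 21 against 8 and 15, did not pass the test, and MT-TR (13 and 6 against 4 and 6) and MT-TH (10 and 7 against 7 and 9) were not tested.

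An interaction term compared the responses, H929 labels minus JJN3, with the JJN3 libraries in it. Since the group was proposed with the JJN3 contrast known and the term subtracts that response, estimates below 0 were favoured in advance. The counts and signs below describe the members and support nothing further. Of 28 members tested, 15 were lower and 0 higher, against 25.5% and 28.1% of all genes tested. All 28 estimates were below 0, although that of MT-TI (-0.012) was 0.127 with total counts. The 15 were 8 coding genes, both rRNA genes and 5 tRNA genes, with MT-RNR2 at -1.49 ± 0.24, MT-ND1 at -1.49 ± 0.38 and MT-ND3 at -1.10 ± 0.20. MT-RNR1 differed least of the 15 (-0.504 ± 0.17), at the limit of 0.5. Without JJN3 DMSO replicate 2 the count was 9, without JJN3 DMSO replicate 1 it was 22, and without the H929-labelled THZ1 replicate 1 it was 6. With DESeq2 6 members were called. The responses cannot be compared as those of 2 lines, since source of the cells and treatment label cannot be told apart for H929.

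Nuclear genes that serve the mitochondrial transcripts went another way than the transcripts in JJN3. Of 51 nuclear genes for mitochondrial transcription, RNA processing and RNA stability, 50 were tested in JJN3, of which 31 (62%) were lower and 0 higher with THZ1, against 21.3% and 20.6% of all genes. At an unadjusted p under 0.05 in the edgeR test 3 of the 50 were higher and 41 lower, and DESeq2 also called 31 lower and 0 higher. TEFM, the elongation factor of POLRMT, went from 712 and 741 to 301 and 347 counts (log2 fold change -0.97 ± 0.10). TRMT10C, a subunit of the enzyme that cuts tRNAs at their 5′ end, went from 2491 and 2810 to 1085 and 1290 (-0.97 ± 0.09). SLIRP, which binds mitochondrial mRNA together with LRPPRC, went from 1894 and 2115 to 976 and 1016 (-0.81 ± 0.09). TFB2M, the initiation factor of POLRMT (-0.61 ± 0.10), PNPT1, a nuclease of the mitochondrial degradosome (-0.68 ± 0.08), and ELAC2, which cuts tRNAs at their 3′ end (-0.59 ± 0.08), were lower as well. The polymerase POLRMT itself was at -0.21 ± 0.09, the DNA-packaging factor TFAM at 0.06 ± 0.08, LRPPRC at 0.11 ± 0.10, HSD17B10, the partner of TRMT10C, at 0.03 ± 0.08 and the helicase SUPV3L1 at -0.34 ± 0.08, none of them past both limits.

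In the H929-labelled libraries all 51 were tested, of which 30 (58.8%) were lower and 7 higher, against 32.6% and 33.1% of all genes. LRPPRC, with 14184 and 13334 counts against 5202 and 5233 (log2 fold change -1.44 ± 0.05), and HSD17B10, with 3664 and 3752 against 1512 and 1374 (-1.41 ± 0.06), fell. TFAM (-0.94 ± 0.06), SLIRP (-1.09 ± 0.07), TFB2M (-1.01 ± 0.07), TRMT10C (-0.99 ± 0.07), PNPT1 (-0.85 ± 0.06) and SUPV3L1 (-0.71 ± 0.07) fell too, all with edgeR adjusted p of 1.33e-07 or less. KIAA0391, the nuclease subunit of the enzyme that holds TRMT10C, had 26 and 22 counts against 8 and 3 (-2.15 ± 0.46, edgeR adjusted p = 0.000436) and was too low in JJN3 to test. POLRMT (-0.30 ± 0.06), TEFM (-0.11 ± 0.10) and ELAC2 (-0.02 ± 0.05) did not pass both limits. The genes named from this list were set by a rule, and none of the 7 that were higher is among them.

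The nuclear-encoded subunits of the same respiratory complexes were mostly not called in JJN3. Of 72 tested subunits of complexes I, III, IV and V, 15 were higher (20.8%) and 4 lower (5.56%), against 20.6% and 21.3% of all genes, with a median log2 fold change of 0.19, beside medians of 1.19 for the mitochondrial coding genes and 0 for all genes. Scaled to total counts the split became 6 higher and 8 lower, with a median of 0.079. In the H929-labelled libraries 9 were higher (12.5%) and 21 lower (29.2%), against 33.1% and 32.6% of all genes, with a median of -0.22. Of 11 genes for replication of mitochondrial DNA, 0 were higher and 3 lower (27.3%) in JJN3, and 3 were higher (27.3%) and 4 lower (36.4%) under the H929 labels, where all but the 0 lie near the same shares of all genes. At an unadjusted p under 0.05 in the edgeR test 2 of these 11 were higher in JJN3, and DESeq2 called 1 of them higher. The number of mitochondrial genomes per cell was not measured.

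Nuclear pseudogenes of the mitochondrial genes, copies of mitochondrial DNA in nuclear chromosomes, took 0.496% to 1.01% as many counts as the 37 genes. Of 196 such pseudogenes, 3 reached 100 counts in any library. MTND6P4 had 20.7% to 24.6% as many counts as MT-ND6 in the 4 JJN3 libraries and 11.4% to 11.8% in the 4 labelled H929. MTND4P12 had 1.03% to 1.67% as many as MT-ND4. MTATP8P2 was counted 2875 and 2471 times with DMSO under the H929 labels, 28.1% and 30.3% of the counts of MT-ATP8, and 7 counts or fewer in each of the other 6 libraries. Whether these reads came from MT-ATP8 RNA or from the nuclear copy was not tested. The MT-ATP8 response under the H929 labels and its interaction are uncertain to that extent. The H929-labelled treatment groups thus differed from each other in MTATP8P2, as in light chain genes, and were alike in the ratios of MTND6P4 to MT-ND6 and of MT-CO2 to MT-CO1. Other measures differed between them, such as the MT-CO3 share of coding counts given above. MT-RNR2 over MT-RNR1 was 9.30 and 8.20 with DMSO and 6.33 and 7.02 with THZ1.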

How the data were processed

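RNA-seq was analysed for 8 libraries of JJN3 and H929 cells, grouped by the sample labels. Per the paper's methods and the submitters' processing notes, the authors aligned reads to hg19 with STAR 2.5.2a, kept reads that align to a single place, and deposited a raw count per Ensembl gene from featureCounts, which was used here without change. The authors also deposited tables of their DESeq2 1.12.4 comparisons, with a mean normalized signal, a log2 fold change and its standard error, a test statistic (a score) and p-values, which were not used except for gene symbols.

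The counts of all genes were tested in R 4.3.3 by the quasi-likelihood test of edgeR 4.0.16, after filterByExpr and TMM scaling, with Benjamini-Hochberg adjustment, within each line and as an interaction over 8 libraries. Normalized CPM use TMM library sizes computed within each line. Genes were called at an adjusted p under 0.05 and a log2 fold change beyond 0.5. Alternatives were DESeq2 1.42.0, other scalings, filters and limits, a replicate block, and leaving out each library. The scripts were tested on simulated data.

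Windows of 50 bases on chromosome M were searched on both strands of the GRCh37 primary assembly for exact copies, and gene positions came from GENCODE of that build. Values per library were given for all coding and rRNA genes, the tested light-strand tRNA genes, and the 3 tRNA genes with the largest and the 3 with the smallest log2 fold change in JJN3. The members, gene lists and rules were chosen with earlier results of these data known, and MT-TQ, MT-TK, MT-TE, MT-TG, MT-TI, MT-TM, MTERF and LACTB2 were named after their values were seen.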

Additional observations from a re-analysis of the deposited data

Results flagged for a closer look

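The responses of 15 members differed between the H929 labels and JJN3 by the edgeR interaction test, all of them lower under the H929 labels. The differences on the log2 scale were -1.72 for MT-TF, -0.50 for MT-RNR1, -1.49 for MT-RNR2, -1.91 for MT-TL1, -1.49 for MT-ND1, -1.02 for MT-ND2, -0.92 for MT-TY and -0.88 for MT-CO1. For the remaining 7 they were -0.80 for MT-ATP8, -0.95 for MT-CO3, -1.10 for MT-ND3, -1.86 for MT-TR, -2.76 for MT-TL2, -1.17 for MT-ND5 and -0.97 for MT-ND6. MT-TL2 and MT-TR rest on at most 21 and 30 counts per library, and MT-ATP8 has the limit given above with its nuclear copy MTATP8P2. The test holds the JJN3 libraries that the description above rests on. It subtracts a JJN3 response that was known when the group was proposed, so negative values were favoured in advance and support nothing further. The source of the cells cannot be told apart from the label in H929.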

How the results depend on the processing

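In JJN3 the count of 27 members called higher was 13 with DESeq2 and 16 to 24 with a library left out, and 22 or more under every other alternative but a log2 limit of 1, where it was 19. Scaling to total counts moved the median of all genes in JJN3 by -0.10 on the log2 scale and its calls to 2353 higher and 3641 lower, against 2877 and 2972, and left 23 members called higher. Testing without a filter moved that median by 0.13. Under the H929 labels the 8 members called higher became 5 without a filter, 14 with the adjusted p alone, 4 with a log2 limit of 1 and 4 to 14 with a library left out, and the 1 called lower became 0 with a filter of 1 CPM and 2 with the adjusted p alone. The 15 members lower in the interaction became 6 without a filter, 6 with DESeq2, 9 with a log2 limit of 1 and 6 to 22 with a library left out, and total counts there moved the median of all genes by 0.14 and the calls to 5168 higher and 3635 lower, against 4538 and 4117.

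The log2 ratio of the mitochondrial share in JJN3 was 1.25, and 0.83 to 1.86 with a library left out. The same ranges were 0.61 to 1.69 for coding genes, 1.87 to 2.55 for rRNA, 0.96 to 2.17 for heavy-strand tRNA and 0.48 to 0.84 for light-strand tRNA genes. Under the H929 labels they were 0.11 to 0.57 for all members, 0.065 to 0.53 for coding genes, 0.71 to 1.08 for rRNA, -0.14 to 0.58 for heavy-strand and 0.26 to 0.51 for light-strand tRNA genes. Values near 0 changed sign. Under the H929 labels MT-ND1 (-0.002) was 0.022 with DESeq2 or its size factors, 0.047 with total counts, 0.017 with TMM without the members and 0.002 with a filter of 1 CPM. The interaction of MT-TI (-0.012) was 0.127 with total counts, 0.022 with TMM without the members, 0.070 without a filter and 0.009 with a filter of 1 CPM. With a library left out, the H929-labelled values ran from -0.26 to 0.23 for MT-ND1, -0.002 to 0.51 for MT-ATP6, -0.10 to 0.16 for MT-ATP8, -0.36 to 0.12 for MT-CO3, -0.25 to 0.70 for MT-TF, -0.35 to 0.47 for MT-TL1, -0.061 to 0.16 for MT-TP and -0.48 to 0.70 for MT-TT. The interaction ran from -0.57 to 0.039 for MT-TC, -5.23 to 1.67 for MT-TG, -1.38 to 0.70 for MT-TI and -1.38 to 0.46 for MT-TM. The causes were not tested.

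Whether the replicate numbers pair the samples is not given in the labels. Deviations of same-numbered libraries correlated at 0.012 across genes in JJN3 and -0.029 under the H929 labels. With the replicate number as a block, 25 members were called higher in JJN3, 8 higher and 1 lower under the H929 labels, and 16 lower in the interaction. Depth limits the tRNA genes, of which 6 of 22 had 10 counts or more in all 8 libraries.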
